A study of Mus musculus with 30 samples.

Results

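The 10 genes described here, Arg1, Fbp1, Mrc1, Cd163, Clec10a, Pdcd1lg2, Cd68, Msr1, Marco and Gpnmb, are used to describe macrophages, several of them as marks of alternative activation. They were taken by symbol, in all genotypes of both tissues, from the 24062 symbols of the ileum table and the 24062 of the lung table, and all 10 were present in both. Arg1 and Fbp1 were chosen by their measured lung difference, which was large, so their lung values are given as a description without a test. The stated reason for the choice names no lung value of the other 8 genes and no ileum value. All 10 were nevertheless chosen with earlier results of these data known, so the tests below are not independent of those results. After the filter on low counts, all 10 genes could be fitted in the lung and 9 in the ileum, where Marco was left out.

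The study profiled poly-A RNA from the terminal ileum and the post-caval lobe of the lung of mice on a C57bl/6 background. TL1A, the product of Tnfsf15, is a cytokine of the TNF family that signals through the receptor DR3 on lymphocytes. Mem mice overexpressed a membrane-restricted TL1A, named Delta 69-93 in the labels, and Mem+Sol mice overexpressed the membrane form together with the soluble one. WT mice were the comparison group, although the WT genotype label also speaks of TL1A driven by the CD2 promoter, a promoter used to express transgenes in lymphocytes. Age, line and clone are not in the labels, and whether each library stems from its own animal is not stated either. The p-values therefore measure the spread among libraries, some of which may be technical. The ileum gave 5 WT, 5 Mem and 6 Mem+Sol libraries, with 1, 2 and 3 females, and the lung gave 5 WT, 5 Mem and 4 Mem+Sol libraries, with 2, 3 and 3 females. The ileum libraries all belonged to sequencing batch 3 and the lung libraries to batches 1 and 2, so batch and tissue cannot be told apart.

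Totals ranged from 4.3 M to 36.1 M counts (M, 1000000) in the ileum and from 22.3 M to 39.1 M in the lung. WT ileum libraries, at 4.3 M to 13.2 M, were shallower than most Mem+Sol ileum libraries, at 12.5 M to 36.1 M. Levels are given as CPM, counts scaled to a normalised library total of 1000000. Tnfsf15 averaged 7.68 ± 2.07 CPM over 5 WT lungs (SD), 22.4 ± 1.85 over 5 Mem lungs and 77.3 ± 15.6 over 4 Mem+Sol lungs. In the ileum the same groups averaged 5 ± 2, 4.72 ± 0.737 and 7.23 ± 2.38 CPM (n = 5, 5 and 6), so the 3 ileum groups overlapped in the gene the transgene carries. The surfactant gene Sftpc averaged 13600 CPM in WT lung and 0 in WT ileum, and the brush border gene Vil1 averaged 2940 CPM in WT ileum and 0.849 in WT lung, as the tissue labels state.

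Macrophages exposed to IL-4 or IL-13 take up a program called alternative activation, in which signalling through STAT6 switches on enzymes, lectins and inhibitory ligands. Arginase 1, encoded by Arg1, splits arginine into ornithine and urea, and competes with nitric oxide synthase for arginine. In the gut wall and in the alveoli macrophages clear dead cells, lipid and particles through scavenger receptors and lectins. Bulk tissue RNA mixes all cells, so a change in the number of macrophages cannot be told apart from a change in the RNA each of them holds. Several of these genes are also read outside macrophages, as Arg1 is in type 2 innate lymphoid cells and Fbp1 in epithelial cells of the small intestine.

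The order of the 10 genes differed between the tissues. Per kb of annotated exon, the highest level in WT lung was that of Cd68, an endosomal and lysosomal glycoprotein of macrophages, at 35.4 ± 3.77 CPM per kb (SD, n = 5). The mannose receptor Mrc1 came next at 15.1 ± 3 CPM per kb, and the ranges of Cd68 and Mrc1 did not touch each other or those below. Marco at 6.91 ± 2.54, Gpnmb at 3.79 ± 0.587 and Cd163 at 2.24 ± 0.814 CPM per kb followed, each overlapping the next in its range over libraries. Clec10a at 0.964 ± 0.128, Arg1 at 0.932 ± 0.13, Pdcd1lg2 at 0.803 ± 0.167 and Msr1 at 0.672 ± 0.123 CPM per kb also overlapped their neighbours, and Fbp1 was lowest at 0.32 ± 0.185. In WT ileum the lowest-ranking lung gene was the highest: Fbp1 stood at 6.79 ± 2.11 CPM per kb, overlapping Cd68 at 6.13 ± 0.739. Mrc1 followed at 2.01 ± 0.656 CPM per kb, separate from its neighbours. The ranges of the next 6 genes, Msr1, Cd163, Pdcd1lg2, Gpnmb, Clec10a and Arg1, ran into one another between means of 0.829 and 0.37 CPM per kb. Marco had no count in the 5 WT ileum libraries, which allows at most 0.065 CPM at 3 counts of their 46.1 M, a limit that covers counting error only. It had 10 counts over the Mem ileum libraries and 8 over the Mem+Sol ones, and no ileum comparison was made for it.

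The upstream sequence of 3 genes is shown because these genes stand for the ways the set behaved. The fitted Mem difference of Fbp1 was positive in lung and negative in ileum, where it was not called. Mrc1 and Pdcd1lg2 were called higher in Mem lung and in Mem+Sol ileum, but in neither genotype in both tissues. RefSeq promoters on GRCm38.p6 matched 7 of the 10 symbols, Marco, Mrc1, Gpnmb, Cd163, Cd68, Fbp1 and Pdcd1lg2. Each window of 300 bases, from 250 before the start site to 50 after it, was searched on both strands for TTC and GAA with any 4 bases between them, the spacing known for STAT6, for GAGGAAG, a sequence known for the myeloid factor PU.1, for TGANTCA of AP-1 and for the E-box CACGTG of the MITF and TFEB family. These motifs do not contain one another. The 250 bases before the start are printed 5′ to 3′ along the gene, with motif matches in capitals: Mrc1 chr2:14229164-14229413 on the plus strand, Fbp1 chr13:62888283-62888532 on the minus strand and Pdcd1lg2 chr19:29410669-29410918 on the plus strand.
Mrc1: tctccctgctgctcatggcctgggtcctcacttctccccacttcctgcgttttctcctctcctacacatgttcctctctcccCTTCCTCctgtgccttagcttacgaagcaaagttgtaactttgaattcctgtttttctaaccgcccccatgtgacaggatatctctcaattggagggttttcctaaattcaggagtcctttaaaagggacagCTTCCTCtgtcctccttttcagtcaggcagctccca
Fbp1: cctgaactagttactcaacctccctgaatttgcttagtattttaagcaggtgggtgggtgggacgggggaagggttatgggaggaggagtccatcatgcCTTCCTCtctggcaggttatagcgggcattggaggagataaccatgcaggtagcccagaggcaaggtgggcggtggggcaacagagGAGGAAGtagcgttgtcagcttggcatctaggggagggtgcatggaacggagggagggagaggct
Pdcd1lg2: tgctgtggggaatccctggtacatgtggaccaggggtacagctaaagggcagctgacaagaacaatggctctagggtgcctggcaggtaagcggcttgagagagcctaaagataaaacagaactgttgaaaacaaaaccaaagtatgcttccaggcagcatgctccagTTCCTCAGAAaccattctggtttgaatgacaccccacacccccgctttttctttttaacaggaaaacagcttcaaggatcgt
The capitals in Pdcd1lg2 are its match to the STAT6 type, which begins 82 bases before the start. This motif was found in 1 of the 7 windows and in 6.95% of all 32851 RefSeq promoters. The capitals in Mrc1 and Fbp1 are GAGGAAG on one strand or the other, 168 and 36 bases before the start of Mrc1 and 151 and 65 before that of Fbp1. GAGGAAG was found in 3 of 7 windows, those of Marco, Mrc1 and Fbp1, and in 13.6% of all promoters. TGANTCA was found in the windows of Gpnmb and Cd68, against 7.81% of all promoters, and CACGTG in 0 of the 7, against 7.15%. A match describes the letters only, and binding was not measured.

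In the lung, Arg1 and Fbp1 were high in Mem libraries and close to WT in Mem+Sol libraries. Arg1 lies at chr10:24915221-24927484 on the minus strand of GRCm38. It stood at 1.68, 2.43, 1.91, 2.14 and 2.22 CPM in the WT libraries, at 7.58, 20.7, 8.3, 50.9 and 9.96 in the Mem libraries and at 2.05, 4.51, 1.65 and 1.85 in the Mem+Sol libraries. All 5 Mem libraries lay above all WT and all Mem+Sol libraries, and the second Mem+Sol library was the highest of its group. The fitted log2 difference of Mem from WT was 2.87 ± 0.45 (SE), and that of Mem+Sol from WT was -0.04 ± 0.51. Within batch 1 the Mem difference was 2.94 ± 0.78 and within batch 2 it was 2.69 ± 0.37. Batch 2 held only 1 female and 1 male lung library of each genotype, so its values and SE, here and below, rest on few libraries. The 3 female Mem libraries spanned 9.96 to 50.9 CPM and the 2 male ones 7.58 to 8.3, while WT females at 2.22 and 2.43 and WT males at 1.68 to 2.14 lay much closer together.

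Fructose bisphosphatase 1, encoded by Fbp1, removes a phosphate from fructose 1,6-bisphosphate and so turns glycolysis back towards glucose. The gene lies at chr13:62864753-62888282. It stood at 0.296, 0.342, 0.763, 0.994 and 0.332 CPM in WT lung, at 0.726, 18.2, 8.48, 94.5 and 40.2 in Mem lung and at 0.464, 1.61, 0.747 and 0.847 in Mem+Sol lung. Of the Mem libraries 4 lay far above every other lung library, and the first, a male of batch 2, lay within the WT range. The fitted log2 difference of Mem from WT was 4.96 ± 0.91 (SE), with 5.28 ± 1.03 within batch 1 and 4.38 ± 1.54 within batch 2. The Mem libraries of batch 2 stood at 0.726 and 18.2 CPM. Mem+Sol differed from WT by 0.26 ± 1.18 on the log2 scale and from Mem by -4.70 ± 0.88. The 3 female Mem libraries spanned 18.2 to 94.5 CPM and the 2 male ones 0.726 to 8.48. Arg1 and Fbp1 had the same highest library, a Mem female of batch 1.

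**Figure D1:**
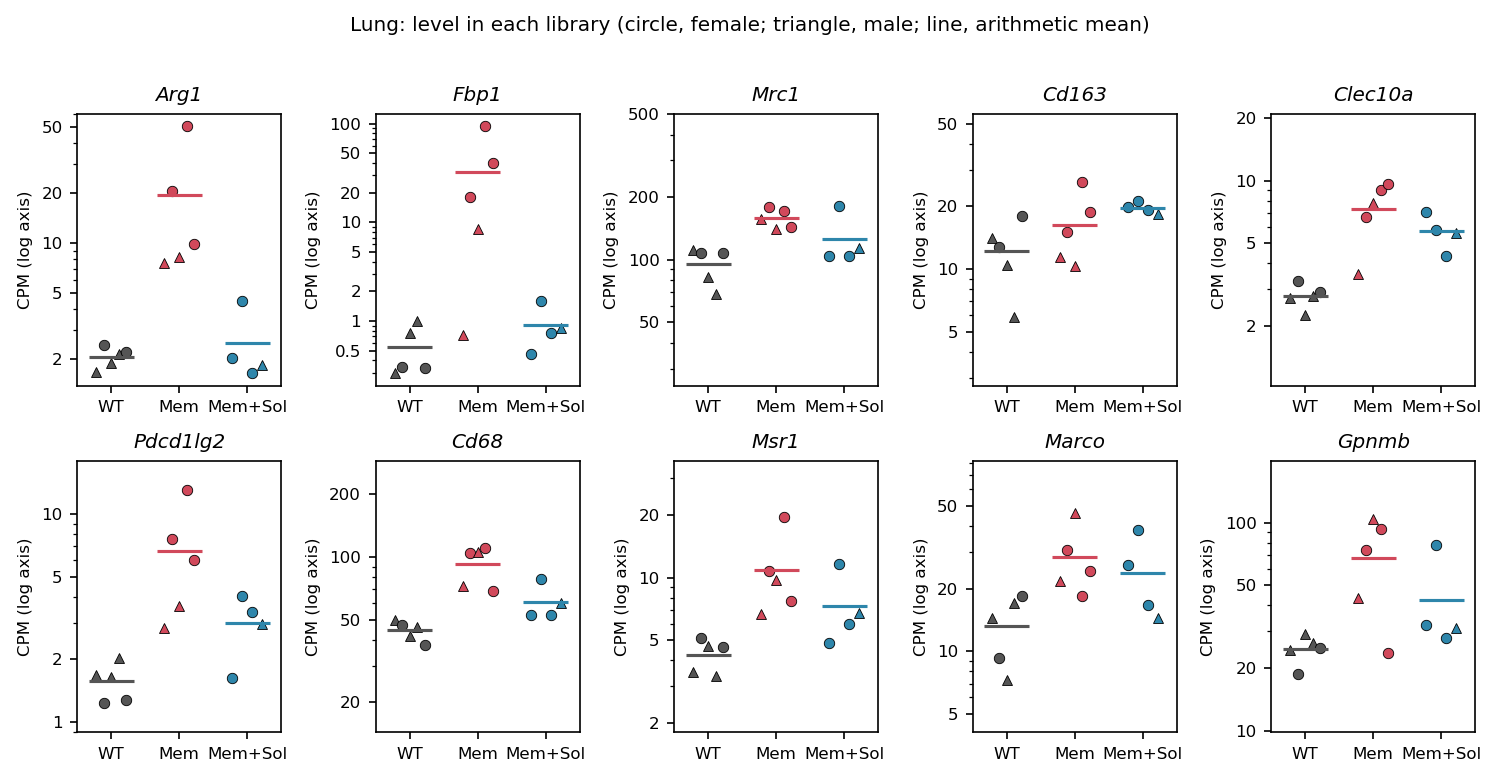
Level of each gene in each lung library, in CPM on a log axis, with 1 panel per gene, the 3 genotypes along the x axis, circles for females, triangles for males and a line at the arithmetic mean. Mem libraries reach 50.9 CPM for Arg1 and 94.5 for Fbp1, while no Mem+Sol library exceeds 4.51 and 1.61.

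Of the 8 lung genes that were tested, 7 rose in Mem against WT and none fell. The test was edgeR's quasi-likelihood F, with p adjusted by Benjamini and Hochberg over 15885 genes. Over all of these, 9.46% were called, 6.41% higher and 3.05% lower. The ranges of 5 of the 8 genes did not overlap upward, against 3.81% of all genes tested. The median log2 difference of the 8 genes was 1.17, and that of all genes was -0.02.

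The lectins rose in Mem lung. Mrc1, the mannose receptor CD206 that takes up mannose-rich glycoproteins, stood at 112, 108, 82.7, 68.8 and 108 CPM in WT, at 157, 179, 140, 171 and 143 in Mem and at 104, 182, 104 and 114 in Mem+Sol. WT and Mem did not overlap, with a log2 difference of 0.68 ± 0.16 (SE, adjusted p = 0.0161), but without the third Mem library the adjusted p was 0.0553, in a range of 0.000824 to 0.102 over all alternatives. Clec10a, the macrophage galactose-type lectin, stood at 2.73, 3.28, 2.25, 2.8 and 2.91 CPM in WT, at 3.54, 6.7, 7.78, 9.03 and 9.64 in Mem and at 7.09, 5.8, 4.33 and 5.61 in Mem+Sol. All Mem and all Mem+Sol libraries lay above the WT range. The log2 difference from WT was 1.29 ± 0.20 in Mem (adjusted p = 0.00126) and 0.96 ± 0.21 in Mem+Sol (adjusted p = 0.0493). Within batch 1 the Mem difference of Clec10a was 1.67 ± 0.18 and within batch 2 it was 0.74 ± 0.31, with the first Mem library, of batch 2, lowest in its group.

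Pdcd1lg2 encodes PD-L2, a ligand of the inhibitory receptor PD-1 on T cells. It stood at 1.68, 1.23, 1.65, 2.03 and 1.28 CPM in WT lung, at 2.84, 7.62, 3.62, 13.1 and 5.98 in Mem and at 1.62, 4.04, 3.39 and 2.95 in Mem+Sol. Every Mem library lay above every WT library, and the first Mem+Sol library lay inside the WT range. The log2 difference of Mem from WT was 1.89 ± 0.39 (SE, adjusted p = 0.00857), the highest of the 8, with 1.94 ± 0.54 within batch 1 and 1.73 ± 0.44 within batch 2. As for Arg1, the 3 female Mem libraries, at 5.98 to 13.1 CPM, lay above the 2 male ones, at 2.84 and 3.62.

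Scavenger receptors of the set rose in Mem lung with 1 exception. Cd68 stood at 49.7, 47.3, 41.6, 46.2 and 37.9 CPM in WT, at 72.8, 104, 106, 110 and 69 in Mem and at 52.6, 78.3, 52.4 and 60 in Mem+Sol. Both transgenic groups lay above the WT range, with a log2 difference of 1.05 ± 0.16 in Mem (adjusted p = 0.0011) and 0.46 ± 0.17 in Mem+Sol (adjusted p = 0.203). Msr1, the class A scavenger receptor that takes up modified lipoproteins, stood at 3.52, 5.1, 4.7, 3.35 and 4.65 CPM in WT, at 6.65, 10.7, 9.71, 19.6 and 7.68 in Mem and at 4.84, 11.6, 5.97 and 6.74 in Mem+Sol. All Mem libraries lay above WT, and the log2 difference was 1.25 ± 0.27 (adjusted p = 0.0118). Leaving out the fifth WT library gave an adjusted p of 0.0516 for Msr1, in a range of 8.35e-05 to 0.169 over all alternatives.

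Marco, a class A receptor of alveolar macrophages that binds bacteria and particles, stood at 14.5, 9.24, 7.25, 17 and 18.5 CPM in WT lung, at 21.7, 30.8, 46.4, 18.4 and 24.2 in Mem and at 26, 38.3, 16.7 and 14.5 in Mem+Sol. Its Mem and WT ranges touched, and the log2 difference of 1.10 ± 0.31 (adjusted p = 0.0409) lost its call in 15 of 23 alternatives, up to an adjusted p of 0.225. The libraries whose removal ended it were Mem replicates 1, 2 and 3, Mem+Sol replicates 1 and 3 and WT replicates 2, 3, 4 and 5, with log2 differences of 0.81 to 1.23 and adjusted p of 0.0503 to 0.19 among them. Cd163, the haemoglobin and haptoglobin scavenger receptor, was the gene that did not pass in Mem. It stood at 14.1, 12.7, 10.5, 5.89 and 17.9 CPM in WT, at 11.4, 15, 10.3, 26.1 and 18.7 in Mem and at 19.9, 21.2, 19.2 and 18.3 in Mem+Sol. Its log2 difference from WT was 0.27 (95% interval -0.2 to 0.75, adjusted p = 0.452) in Mem and 0.51 (0.01 to 1.02, adjusted p = 0.294) in Mem+Sol, where all 4 libraries lay just above the highest WT library.

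Gpnmb is a transmembrane glycoprotein of lysosomes and melanosomes found in lipid-laden macrophages. It stood at 24.3, 18.7, 29.1, 26.4 and 25 CPM in WT lung, at 43.5, 73.5, 104, 93.2 and 23.6 in Mem and at 32.2, 78.4, 27.8 and 31.2 in Mem+Sol. Of the Mem libraries 4 lay above WT, and the fifth lay within it. The log2 difference was 1.47 ± 0.36 (SE, adjusted p = 0.0229), with 1.59 ± 0.55 within batch 1 and 1.42 ± 0.30 within batch 2. The call ended without Mem replicate 2 or 3 or without WT replicate 2, 3 or 5, at log2 differences of 1.28 to 1.47 and adjusted p of 0.0527 to 0.111. The second Mem+Sol library, which was highest in its group for Arg1, Fbp1, Mrc1, Cd163, Pdcd1lg2, Cd68, Msr1, Marco and Gpnmb, was not highest for Clec10a.

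Batch 1 alone gave 2 of 8 calls in Mem against WT, where 956 of 15925 genes were called, and batch 2 alone gave 0 of 8, where 3 of 15884 were, so the batch 2 count says nothing particular about these genes. The 7 called genes kept a positive difference within each batch, between 0.73 and 1.94 in batch 1 and between 0.61 and 1.73 in batch 2. Without 1 library at a time, 4 to 7 of the 8 genes were called, with 4 when Mem replicate 3 or WT replicate 5 was left out. Calls over all genes fell from 1503 to 658 and 627 with the same libraries left out.

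Mem+Sol lung was next compared with WT. Of the 8 genes, 1 was called higher, Clec10a, where 0.844% of all genes were called, 0.523% higher and 0.321% lower. The ranges of 3 genes, Cd163, Clec10a and Cd68, did not overlap WT, against 2.08% of all genes. The median log2 difference of the 8 was 0.74, against 0.01 over all genes. The Clec10a call was lost in 15 of 23 alternatives, up to an adjusted p of 0.347. It was kept without Mem replicate 1 and without Mem+Sol replicate 2 or 3, and each of the other 11 libraries ended it when left out, at log2 differences of 0.72 to 1.09. Mem+Sol and Mem were then compared directly. None of the 8 genes was called by edgeR, against 2.23% of all genes, and 3 had an unadjusted p below 0.05. DESeq2 called 2 of the 8, where it called 979 of 15885 genes. The 3 were Cd68 at -0.60 (95% interval -0.95 to -0.25, adjusted p = 0.069), Pdcd1lg2 at -1.09 (-1.89 to -0.29, adjusted p = 0.138) and Mrc1 at -0.37 (-0.72 to -0.01, adjusted p = 0.27) on the log2 scale. Without Mem+Sol replicate 2, 2 genes were called lower, Cd68 (-0.76, adjusted p = 0.0261) and Mrc1 (-0.62, adjusted p = 0.0156). Over all genes 648 of 15989 were called there, against 355 of 15885 with all libraries. Without Mem replicate 1 or 5 Cd68 was called (-0.68 and -0.70), where 405 of 15874 and 331 of 15870 genes were called. With the replicate number as a block, Cd68 was the 1 gene of 8 called (-0.67, adjusted p = 0.0329), beside 478 of 15885 genes in all. The labels do not state that same-numbered libraries are paired, and these pairs came from different batches.

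**Figure D2:**
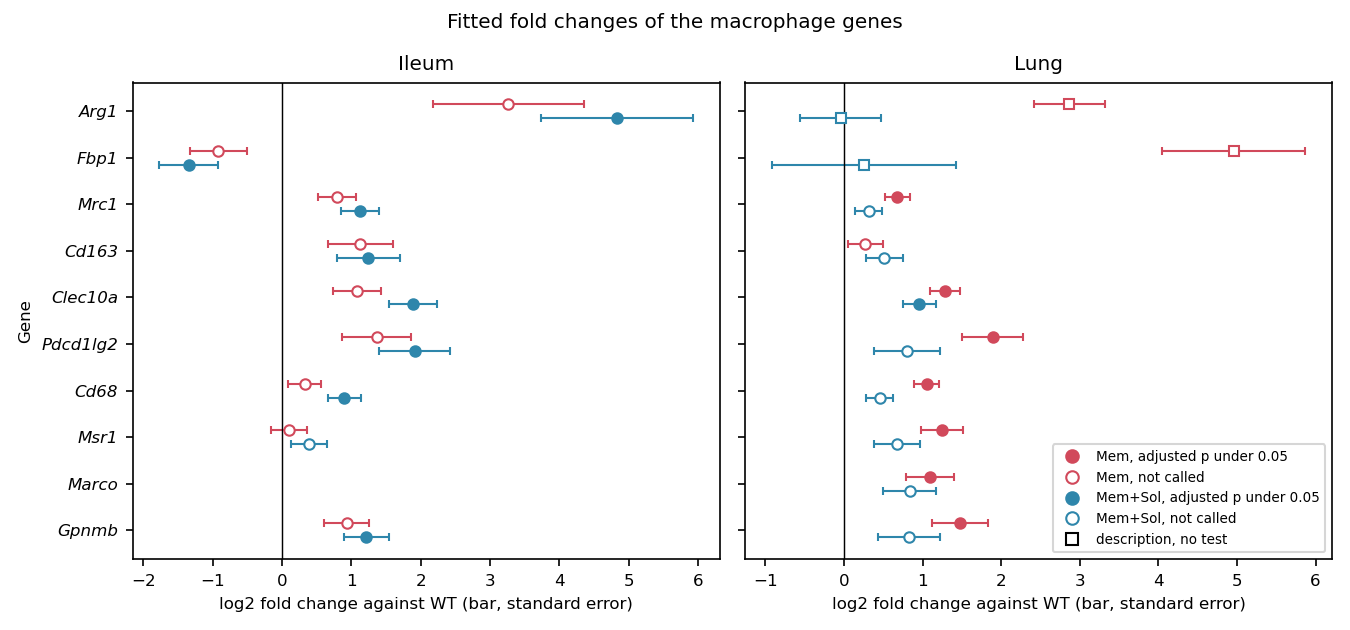
Fitted log2 fold changes against WT in ileum (left) and lung (right) for each gene, with the standard error as a bar, red for Mem and blue for Mem+Sol, filled where the adjusted p was under 0.05 and squares where no test was made. In the lung most red points lie to the right of the blue ones, and in the ileum every blue point lies farther from 0 than the red one of its gene; Marco has no ileum point.

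Other macrophage genes moved in the same lung libraries. From a list of 20 pan-macrophage and monocyte genes, 14 were higher and 0 lower in Mem lung, where 9.46% of all genes were called. The list, which also held the growth factor genes Csf1 and Csf2, had a median log2 difference of 0.57. In Mem+Sol lung 0 were called by edgeR, 11 had an unadjusted p below 0.05 and DESeq2 called 5. The summed level of the list was 3750 to 5370 CPM in WT, 5030 to 8310 in Mem and 3660 to 6560 in Mem+Sol, and none of its genes was at 0. Its leading calls in Mem were C1qc, a chain of complement C1q, at 28.2 ± 3.46 against 67.9 ± 21.7 CPM, and Aif1, at 3.69 ± 0.554 against 8.99 ± 3.1 (SD, n = 5 each). Of 14 alveolar macrophage markers 7 were higher, and of 10 dendritic cell markers 7 were higher, among them Flt3 at 7.33 ± 2.3 against 20.1 ± 5.91 CPM. The dendritic list summed to 397 to 424 CPM in WT lung and 482 to 577 in Mem. The part of these lists in the differences of the 10 genes was not tested.

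Each gene was also set against the mean log2 CPM of the macrophage and monocyte list in the same library, as a description. In Mem lung the difference from WT that remained was 4 for Fbp1, 2.17 for Arg1, 1.23 for Pdcd1lg2, 0.68 for Clec10a, 0.66 for Gpnmb and 0.63 for Msr1. It was 0.12 for Mrc1 and -0.20 for Cd163, with overlapping ranges. On this scale Arg1 and Pdcd1lg2 kept Mem and WT libraries apart, and the other 8 genes did not. In Mem+Sol lung Clec10a kept a difference of 0.69 without overlap, and Arg1 stood at -0.15.

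**Figure D3:**
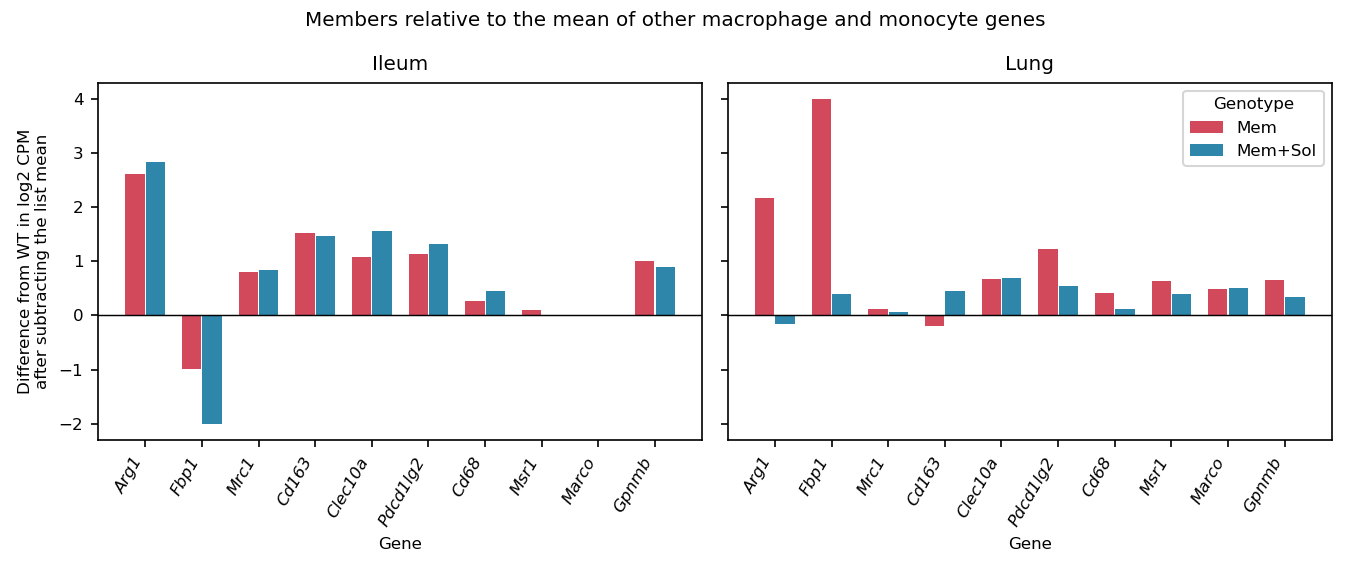
Difference from WT in mean log2 CPM after the mean of the pan-macrophage and monocyte list was subtracted in each library, for ileum (left) and lung (right), red bars for Mem and blue bars for Mem+Sol. In Mem lung Fbp1 reaches 4 and Arg1 2.17 while Mrc1 stands at 0.12; in the ileum Fbp1 is the only gene with both bars well below 0, and Marco has no bar there.

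In Mem+Sol ileum 7 of the 9 genes fitted rose against WT and 1, Fbp1, fell. Over all 14959 genes 28.7% were called in that comparison, 16.6% higher and 12.1% lower. In Mem against WT, 0 of 9 were called by edgeR, where 8.06% of all genes were called, although 7 had an unadjusted p below 0.05. DESeq2 called 4 of the 9, where it called 1926 of 14959 genes. The median log2 difference of the 9 was 1.22 in Mem+Sol and 0.93 in Mem, against 0.01 and 0.00 over all genes. Both comparisons share the WT libraries. Mem+Sol against Mem gave 0 of 9 calls by edgeR and by DESeq2, where 0.0134% of all genes were called, with 2 unadjusted p below 0.05, for Clec10a (log2 difference 0.80, adjusted p = 0.388) and Cd68 (0.57, adjusted p = 0.388). A difference between the transgenic groups in the ileum was thus not shown for these genes.

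Arg1 was low in all WT ileum libraries and varied widely in the transgenic ones. It stood at 0.482, 0.518, 1.17, 0.961 and 0.987 CPM in WT, at 1.47, 15.3, 3.26, 6.04 and 11 in Mem and at a lowest, median and highest of 0.924, 8.12 and 79 in Mem+Sol. All Mem libraries lay above WT, the 1 gene of 9 with no overlap where 4.79% of all genes had none upward, whereas the first Mem+Sol library fell inside the WT range. The log2 difference was 4.83 ± 1.10 in Mem+Sol (SE, adjusted p = 0.00419) and 3.26 ± 1.09 in Mem (adjusted p = 0.075). The fourth Mem+Sol library, a male, held the value of 79 CPM, and without it the difference fell to 2.97 with an adjusted p of 0.0521, in a range of 9.37e-06 to 0.0521 over all alternatives.

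Fbp1 fell in the ileum. It stood at 6.85, 14.8, 10.8, 9.82 and 15.5 CPM in WT, at 9.63, 4.6, 4.45, 6.33 and 4.76 in Mem and at a lowest, median and highest of 1.73, 2.98 and 9.22 in Mem+Sol. Of the Mem+Sol libraries 4 lay at or below 3.06 CPM, the first lay at 6.6, just under the WT range, and the fifth, at 9.22, lay within it. The log2 difference was -1.34 ± 0.42 in Mem+Sol (SE, adjusted p = 0.0263) and -0.92 ± 0.42 in Mem (adjusted p = 0.186). The Mem+Sol call ended without Mem+Sol replicate 4 or 6 or WT replicate 2 or 5, at log2 differences of -1.26 to -1.07 and adjusted p up to 0.0763. Of 10 enterocyte markers, 1 was higher and 5 lower in Mem+Sol, where 28.7% of all genes were called. The brush border phosphatase Alpi stood at 656 ± 247 CPM in WT (SD, n = 5) and 168 ± 55.6 in Mem+Sol (n = 6). The list summed to 14700 to 33000 CPM in WT, 8350 to 15700 in Mem and 5740 to 14500 in Mem+Sol, with none at 0, and its part in the Fbp1 difference was not tested.

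The lectins and the PD-1 ligand rose in Mem+Sol ileum. Clec10a stood at 2.03, 1.04, 0.521, 1.49 and 0.911 CPM in WT, at 3.05, 3.74, 2.19, 1.71 and 2.36 in Mem and at 2.51, 4.8 and 6.73 (lowest, median, highest) in Mem+Sol. With Cd68 it was 1 of 2 genes whose Mem+Sol and WT ranges did not overlap, where 7.57% of all genes had none upward. The log2 difference was 1.89 ± 0.35 (SE, adjusted p = 0.00112), called in all 23 alternatives. Mrc1 stood at 18.5, 9.33, 12.1, 8.54 and 15.4 CPM in WT, at 11.8, 29, 20, 23.2 and 33 in Mem and at 16, 30.2 and 48.5 in Mem+Sol, where only the first library lay within the WT range (1.13 ± 0.27, adjusted p = 0.00627). Pdcd1lg2 stood at 0.675, 1.3, 1.69, 0.854 and 1.44 CPM in WT, at 1.38, 5.67, 1.94, 2.91 and 3.34 in Mem and at 1.25, 4.61 and 8.32 in Mem+Sol (1.91 ± 0.51, adjusted p = 0.0106). The sixth Mem+Sol library lay within WT for Pdcd1lg2, and the other 5 lay above it.

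Among the receptors, Cd68 rose and Msr1 did not pass. Cd68 stood at 7.81, 8.03, 8.34, 6.09 and 8.27 CPM in WT ileum, at 6.98, 12.4, 8.68, 9.88 and 10.8 in Mem and at 9.55, 13.8 and 22.5 in Mem+Sol, a log2 difference of 0.90 ± 0.24 (SE, adjusted p = 0.00949). Msr1 stood at 5.02, 4.92, 5.99, 3.84 and 6.53 CPM in WT, at 5.4, 7.15, 6.24, 4.19 and 6.27 in Mem and at 3.68, 7.16 and 11.2 in Mem+Sol. All 3 groups overlapped for Msr1, with differences of 0.10 (95% interval -0.45 to 0.65) in Mem and 0.39 (-0.16 to 0.93) in Mem+Sol. Gpnmb stood at 4.92, 2.85, 2.87, 1.82 and 1.44 CPM in WT, at 4.23, 5.19, 5.38, 6.04 and 6.39 in Mem and at 2.25, 8.46 and 9.53 in Mem+Sol (1.22 ± 0.32, adjusted p = 0.0104). The sixth Mem+Sol library was lowest of its group for Gpnmb, Pdcd1lg2 and Msr1.

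Cd163 in the ileum had 1 WT library far from the others. The first WT library, the only female of its group, stood at 12.6 CPM and the other 4 at 1.81, 1.17, 0.961 and 1.14. Mem libraries stood at 2.46, 8.04, 9.97, 5.76 and 7.78 CPM and Mem+Sol libraries at a lowest, median and highest of 3.17, 9.93 and 11.7, so all 11 lay between the female and the male WT libraries. With sex in the model the log2 difference was 1.25 ± 0.45 in Mem+Sol (SE, adjusted p = 0.0483) and 1.13 ± 0.47 in Mem (adjusted p = 0.152). The Mem+Sol call was lost in 15 of 23 alternatives, up to an adjusted p of 0.147. The libraries that ended it were Mem replicates 3, 4 and 5, Mem+Sol replicates 2, 3, 4 and 6 and WT replicates 2, 3, 4 and 5, at log2 differences of 0.92 to 1.32. Without the female WT library Cd163 was called in both comparisons, with an adjusted p of 0.0106 for a difference of 2.13 in Mem and 0.00154 in Mem+Sol.

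**Figure D4:**
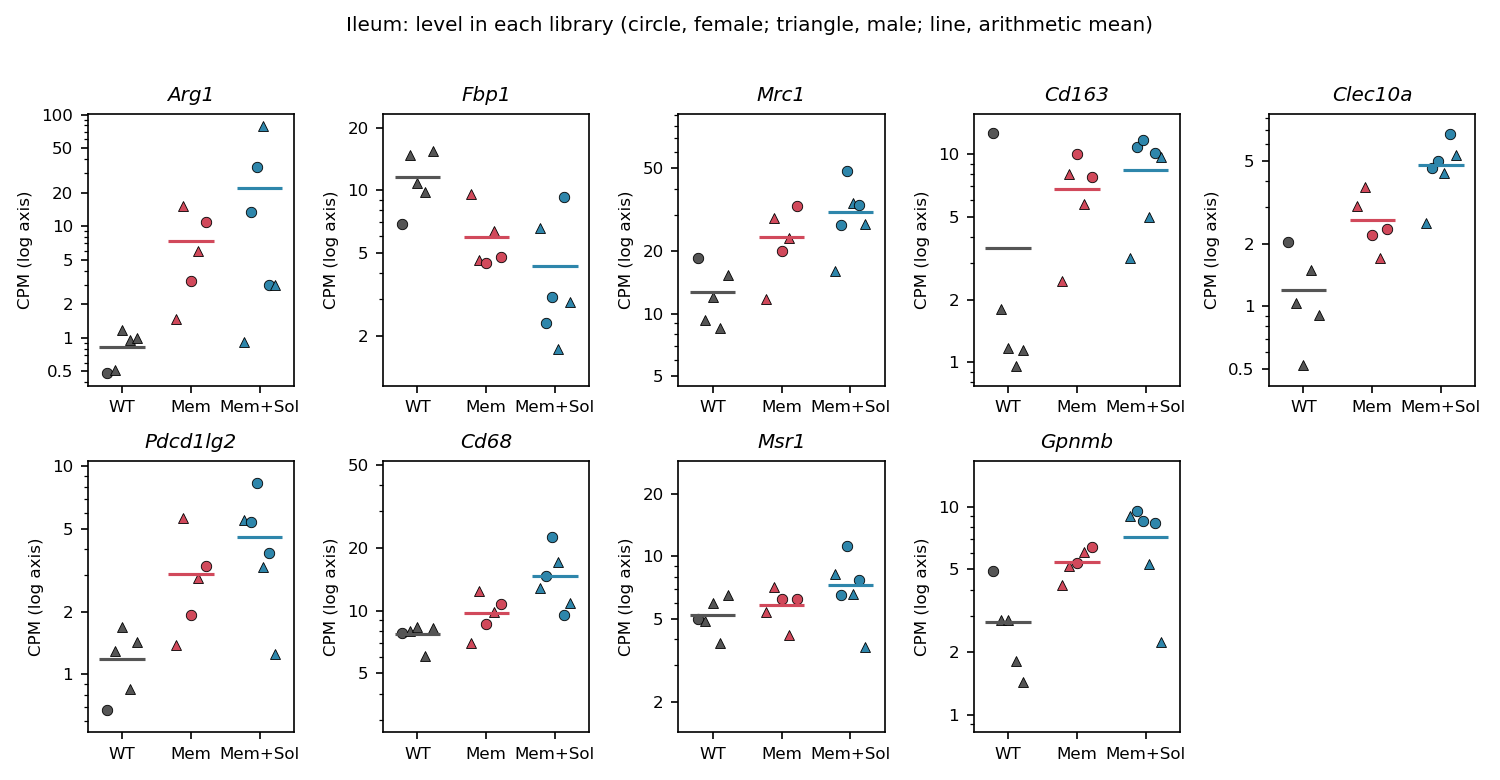
Level of 9 genes in each ileum library, in CPM on a log axis, with 1 panel per gene, the 3 genotypes along the x axis, circles for females, triangles for males and a line at the arithmetic mean. Fbp1 steps down where the other panels step up or stay level, Arg1 spans 0.924 to 79 CPM in Mem+Sol, and 1 WT library stands at 12.6 CPM for Cd163.

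The depth of the ileum libraries moved with genotype. With every ileum library thinned to the smallest total, 7 of 9 genes were called in Mem+Sol, Cd163 being lost, where 3704 of 13389 genes were called, and 0 of 9 in Mem, where 992 of 13389 were. Leaving out Mem+Sol replicate 4 left 5 of 9 called, and 3434 of 14903 over all genes. The pan-macrophage list gave 4 higher and 1 lower of 19 in Mem+Sol ileum, where 28.7% of all genes were called. In Mem ileum, where 8.06% of all genes were called, it gave 0 by edgeR, with 3 unadjusted p below 0.05 and 1 call by DESeq2. It summed to 517 to 881 CPM in WT, 531 to 774 in Mem and 600 to 1050 in Mem+Sol. Set against the mean of that list in each library, Clec10a had a log2 difference from WT of 1.55 in Mem+Sol, with no overlap. Arg1 at 2.83, Cd163 at 1.47, Pdcd1lg2 at 1.31, Gpnmb at 0.9, Mrc1 at 0.84, Cd68 at 0.45, Msr1 at 0.01 and Fbp1 at -2 overlapped WT. In Mem ileum Arg1 at 2.61, Clec10a at 1.08 and Gpnmb at 1 did not overlap WT on this scale, and the other genes did. Fibroblast and smooth muscle markers moved more widely, with 8 of 8 higher in Mem+Sol and sums of 2180 to 3970 CPM in WT and 8460 to 33200 in Mem+Sol, none of them at 0. Type 2 innate lymphoid and T helper markers gave 7 of 9 higher in both ileum comparisons and summed to 42 to 60 CPM in WT, 72.7 to 330 in Mem and 124 to 415 in Mem+Sol. The part of these cell types in the results was not tested.

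Whether the lung and ileum responses differed was tested in one model over all 30 libraries for 7 genes, leaving out Arg1, Fbp1 and Marco. The model held tissue by genotype, sex within tissue and batch within the lung. It gave each gene a single spread for both tissues, although the common coefficient of variation was 0.308 in ileum and 0.13 in lung. The SE and p of these tests depend on that pooling. None passed for Mem by edgeR, where 8.23% of all 16867 genes did, with 2 unadjusted p below 0.05 and 1 call by DESeq2. Over all genes DESeq2 called 2152 there. None passed for Mem+Sol by edgeR or DESeq2, where 18.1% of all genes did by edgeR, with 2 unadjusted p below 0.05. The nearest to the threshold was Msr1, whose Mem difference was larger in lung by 1.13 ± 0.38 on the log2 scale (SE, adjusted p = 0.0653). Cd68 followed at 0.71 ± 0.29 (adjusted p = 0.124), and for Mem+Sol Mrc1 was smaller in lung, at -0.81 ± 0.35 (adjusted p = 0.107). Without the female WT ileum library, Cd163 was called smaller in lung in both. Its Mem value moved from -0.81 to -1.88 (adjusted p = 0.0167) and its Mem+Sol value from -0.67 to -1.82 (adjusted p = 0.0121). As a description only, the Mem difference of Fbp1 was 5.96 ± 0.99 higher in lung than in ileum, and the Mem+Sol difference of Arg1 was -4.84 ± 1.31 in lung relative to ileum.

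Genes that share the pathways of the set were counted from lists that leave the 10 genes out. These lists were chosen with earlier results of these data known, and some genes, such as Cd209a and Nos2, recur across lists. Of 14 other alternative activation genes fitted in the ileum, 4 were higher and 0 lower in Mem and 7 higher and 0 lower in Mem+Sol. Of 15 in the lung, 12 were higher and 1 lower in Mem and 3 higher and 0 lower in Mem+Sol. Over all genes, 8.06% were called in Mem ileum, 28.7% in Mem+Sol ileum, 9.46% in Mem lung and 0.844% in Mem+Sol lung. Retnla, which encodes the secreted protein RELM-alpha, averaged 2.06 ± 1.9 CPM over 5 WT ileum libraries (SD), 39 ± 15.9 over 5 Mem ones and 117 ± 87.8 over 6 Mem+Sol libraries, with log2 differences of 4.17 and 5.75 (adjusted p = 0.00351 and 0.000142). Mgl2, the paralogue of Clec10a, stood at 16.3 ± 3.29 CPM in WT lung, 61 ± 21.3 in Mem and 35.8 ± 10 in Mem+Sol, and was called higher in both comparisons with WT. Clec10a and Mgl2 are close in sequence, and reads that fit both could have been split between them in the counting. In Mem+Sol against Mem lung, 5 of 15 genes of this list were lower, where 2.23% of all genes were called. Among the 5 was Chil4, named after its values were seen, at 93.8 ± 129 CPM in Mem and 3.66 ± 1.87 in Mem+Sol (log2 difference -4.20, adjusted p = 0.0284).

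Partners of IL-4 and IL-13 signalling, such as receptor chains and inhibitors, were counted next. Of 17 fitted in the ileum, 2 were higher and 0 lower in Mem and 3 higher and 1 lower in Mem+Sol. Over all genes 8.06% and 28.7% were called there, so these counts lay near the general share. Of 15 in the lung, 2 were higher and 1 lower in Mem, where 9.46% of all genes were called. In Mem+Sol lung 0 of 15 were called by edgeR, with 3 unadjusted p below 0.05 and 1 call by DESeq2. Il13ra2, the decoy receptor of IL-13, averaged 0.0304 ± 0.0679 CPM in WT ileum (SD), 2.88 ± 2.07 in Mem and 4.62 ± 3.76 in Mem+Sol (adjusted p = 0.00814 and 0.00154). Il13 averaged 0.0975 ± 0.169, 2.26 ± 3.33 and 1.85 ± 1.61 CPM, with an adjusted p of 0.046 in Mem, where the SD exceeded the mean. In Mem lung Socs1, an inhibitor of cytokine signalling, stood at 7.49 ± 1.33 CPM against 4.31 ± 0.805 in WT (adjusted p = 0.0178).

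Of 15 genes of arginine and polyamine metabolism around Arg1, 4 were higher and 4 lower in Mem+Sol ileum, where 28.7% of all genes were called, and 1 was higher and 1 lower in Mem ileum, where 8.06% were. Nos2, the inducible nitric oxide synthase, stood at 245 ± 171 CPM in WT ileum and 9.93 ± 8.68 in Mem+Sol (log2 difference -4.21, adjusted p = 0.0118), and the ornithine enzyme Oat at 728 ± 163 and 308 ± 76.6. P4ha1, a subunit of collagen prolyl hydroxylase, was higher, at 15.4 ± 4.92 and 72.1 ± 24.1 CPM. In the lung 0 of 13 were called in Mem by edgeR, with 6 unadjusted p below 0.05 and 1 call by DESeq2. In Mem+Sol lung 0 of 13 were called by either tool, with 2 unadjusted p below 0.05. Around Fbp1, of 18 genes of gluconeogenesis and glycolysis 2 were higher and 3 lower in Mem ileum and 7 higher and 3 lower in Mem+Sol ileum. Fbp2, the other fructose bisphosphatase, fell from 213 ± 20.8 CPM in WT ileum to 116 ± 27.5 in Mem+Sol (adjusted p = 0.00131). In the lung 3 of 16 were higher in Mem, among them the hexokinase gene Hk3 (adjusted p = 0.0357). In Mem+Sol lung 0 were called by edgeR or DESeq2, with 2 unadjusted p below 0.05. Beside both lists, 9.46% of all genes were called in Mem lung and 0.844% in Mem+Sol lung.

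Of 16 other scavenger receptors 1, Cd14, was higher in Mem lung (39.5 ± 7.55 against 71.8 ± 29.3 CPM, adjusted p = 0.00355). Mem+Sol lung had 0 of 16 called by edgeR or DESeq2, with 4 unadjusted p below 0.05. In the ileum 1 of 14 was higher and 1 lower in Mem, and 4 were higher and 2 lower in Mem+Sol, where Mertk, a receptor for dead cells, fell from 56.5 ± 23 CPM in WT to 17.9 ± 8.04. Lysosome and lipid handling genes gave 10 of 19 higher in Mem lung and 1 in Mem+Sol lung, and 3 and 4 of 18 higher in Mem and Mem+Sol ileum, with 0 lower in any of the 4. Beside both lists, the shares called over all genes were 9.46% in Mem lung, 0.844% in Mem+Sol lung, 8.06% in Mem ileum and 28.7% in Mem+Sol ileum. Trem2, a lipid receptor of macrophages, stood at 3.51 ± 0.943 CPM in WT lung and 15.6 ± 9.7 in Mem (log2 difference 2.06, adjusted p = 0.001). In the PD-1 pathway 3 of 8 were higher in Mem lung, with Pdcd1, which encodes PD-1, at 1.18 ± 0.551 against 6.44 ± 2.98 CPM (adjusted p = 0.000464). For Mem+Sol lung 0 of 8 were called by edgeR, with 2 unadjusted p below 0.05 and 1 call by DESeq2.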

How the data were processed

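RNA-seq read counts per gene symbol were used as the authors deposited them, as raw counts, 1 table per tissue, for 16 ileum and 14 lung libraries. The submitters' processing notes name CASAVA, TopHat2 and the build mm10. Which tool, annotation and strand setting were used for counting is not given in the sources used here. Libraries were grouped by the genotype and tissue of the labels. In R 4.3.3, edgeR 4.0.16 filtered low genes (filterByExpr), normalised by TMM and fitted quasi-likelihood models to all libraries of a tissue, with genotype and sex and, in the lung, batch (12 and 9 residual df). Tests were two-sided, with Benjamini-Hochberg adjustment over all genes tested (14959 in ileum, 15885 in lung) and calls at adjusted p under 0.05. The SE is the log2 difference divided by the square root of F. Log2 CPM used a prior count of 2. Lengths came from GENCODE exons on GRCm38. Same-numbered libraries correlated above 0.1 in every pair (0.121 to 0.354, 4 pairs, residuals of the model) in Mem+Sol against Mem lung only, a pairing taken from the data, not the labels. Alternatives were DESeq2 1.42.0, other normalisation, filters and designs, thinning, and leaving out each library. The model was tested on simulated data. The 10 members and all lists were chosen with earlier results of these data known. Named were the members, up to 2 list genes with the smallest adjusted p per direction, and for Arg1 and Fbp1 the 3 genes nearest in pattern per tissue. A total of 4.3 M counts (M, 1000000) limits low genes in the shallowest ileum library most.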

Additional observations from a re-analysis of the deposited data

Results flagged for a closer look

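In 5 of 59 groups of 4 to 6 libraries, 1 library stood apart from the others by Dixon's criterion, where chance alone flags about 1 in 20 groups, here about 3. The second Mem+Sol lung library stood high for Arg1 at 4.51 CPM (the next at 2.05), for Mrc1 at 182 (the next at 114) and for Gpnmb at 78.4 (the next at 32.2). The first WT ileum library, the only WT female there, stood high for Cd163 at 12.6 CPM, with the next at 1.81. The fourth WT ileum library stood low for Cd68 at 6.09 CPM, with the next at 7.81.

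The Mem difference of Fbp1 had opposite directions in the tissues, with a lung value 5.962 higher than the ileum value on the log2 scale. This difference was not tested, since Fbp1 was included for its lung change.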

How the results depend on the processing

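Calls in Mem+Sol ileum (8 of 9) numbered 5 to 8 without 1 library, and calls in Mem lung (7 of 8) numbered 4 to 7, with 2 in batch 1 alone and 0 in batch 2 alone. Over all genes, Mem lung gave 1503 of 15885 calls, 956 of 15925 in batch 1 and 3 of 15884 in batch 2. Without 1 library Mem lung gave 627 to 2006 calls over all genes. Mem+Sol ileum gave 3069 to 4793, against 4296 of 14959 with all libraries. Calls in Mem ileum (0 of 9) numbered 4 by DESeq2, 3 with only the 2 genotypes compared and 0 to 3 without 1 library, beside 1205 of 14959 genes in all, 1926 of 14959 by DESeq2, 1548 of 14364 with 2 genotypes and 448 to 2396 without 1 library. Calls in Mem+Sol against Mem lung (0 of 8) numbered 2 by DESeq2, 1 in batch 2 alone and 0 to 2 without 1 library, beside 355 of 15885 genes in all, 979 by DESeq2, 1677 of 15884 in batch 2 and 30 to 648 without 1 library. The 1 call in Mem+Sol lung became 0 in batch 1 alone, in batch 2 alone and with no batch term. Over all genes 15, 1207 and 18 were called there, against 134. Without 1 library it numbered 0 to 1, where 10 to 500 genes were called in all. The difference between tissues (0 of 7) gave 1 call for Mem by DESeq2, where 2152 of 16867 genes were called. Without 1 library it gave 0 to 1, for Mem and for Mem+Sol. Over all genes these settings without 1 library gave 808 to 2779 calls for Mem and 2043 to 3731 for Mem+Sol. The cause of these changes was not tested.

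Correlations of the model residuals of same-numbered libraries ran from -0.35 to 0.552 over 15 ileum pairs, 8 of them above 0.1, and from -0.317 to 0.354 over 13 lung pairs, 5 of them above 0.1. Apart from Mem+Sol against Mem lung, where all 4 pairs were above 0.1, no comparison had every pair above 0.1. In every comparison the labels give the libraries of a pair only a shared number. The 4 Mem+Sol and Mem lung pairs each joined libraries of different batches. With the number as a replicate block, 2 genes were called in Mem ileum and 7 in Mem+Sol ileum. Over all 14959 genes, 1688 and 3285 were called there, against 1205 and 4296 without the block. In the lung 6 genes were called in Mem, 0 in Mem+Sol and 1 in Mem+Sol against Mem. Over all 15885 genes, 1105, 68 and 478 were called there, against 1503, 134 and 355 without the block. With the block, Cd163 in Mem+Sol against Mem ileum turned to -0.23.

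Log2 differences that turned sign were mostly near 0. Arg1 in Mem+Sol lung became 0.28 without the sex term, 0.17 with only the 2 genotypes compared and -0.33 to 0.15 without 1 library. Fbp1 in Mem+Sol lung became -0.47 in batch 1 and -0.77 to 0.86 without 1 library. In batch 1 alone Cd163 became -0.15 and Marco 0.22 in Mem+Sol against Mem lung. In batch 2 alone Cd163 became -0.034 in Mem lung, Clec10a 0.012 in Mem+Sol against Mem lung, and Mrc1 -0.015 in Mem+Sol lung. Without 1 library, ileum values ran from -0.023 to 2.00 for Arg1 and from -0.25 to 0.44 for Cd163 in Mem+Sol against Mem, and from -0.045 to 0.21 for Msr1 in Mem against WT. The lung minus ileum difference of Mem ran from -0.89 to 0.072 for Arg1 (0.010 without the sex term), from -0.068 to 0.47 for Clec10a and from -0.26 to 0.083 for Mrc1. The cause was not tested. Arg1 and Fbp1 in Mem lung kept their direction in all 23 alternatives.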

Other observations

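The genes nearest in pattern to Arg1 and Fbp1 differed between the tissues. Nearness was the root mean square difference of log2 CPM, each gene centred on its mean, over all libraries of a tissue. Over 14 lung libraries the nearest to Fbp1 were Mmp12, the elastase of macrophages, at 0.941, the eotaxin gene Ccl24 at 1.12 and the ribonuclease gene Rnase2b at 1.23, where Fbp1 itself varied by 2.56 about its mean. Mmp12 averaged 4.98 CPM in WT lung, 202 in Mem and 16.2 in Mem+Sol. The nearest to Arg1 in lung were Tm4sf19 at 0.627, Fxyd4 at 0.642 and Cdhr1 at 0.681, where Arg1 varied by 1.48. Over 16 ileum libraries the nearest to Fbp1 were Mgst1 at 0.32, the epithelial chemokine gene Ccl25 at 0.348 and Pbld2 at 0.357, where Fbp1 varied by 0.891. Ccl25 averaged 430 CPM in WT ileum, 200 in Mem and 158 in Mem+Sol. The nearest to Arg1 in ileum were Loxl4 at 0.623, Tnip3 at 0.891 and F7 at 0.891, where Arg1 varied by 2.06.

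Genes of classical activation, the program macrophages take up under interferon-gamma and bacterial products, were counted as well. Of 14 fitted in the lung, 5 were higher and 0 lower in Mem, among them Cxcl10, a chemokine for T cells, at 1.51 ± 0.355 CPM in WT and 7.03 ± 2.83 in Mem (SD, n = 5 each), and Il6, at 0.182 ± 0.106 and 0.757 ± 0.308. Mem+Sol lung had 0 of 14 called by edgeR, with 5 unadjusted p below 0.05 and 1 call by DESeq2. Of 10 fitted in the ileum, 1 was higher in Mem and 2 were higher and 3 lower in Mem+Sol. Over all genes, 9.46% were called in Mem lung, 8.06% in Mem ileum and 28.7% in Mem+Sol ileum. In Mem+Sol ileum Cxcl9 fell from 14.3 ± 5.03 CPM in WT to 3.47 ± 2.89 and Ptgs2 rose from 3.01 ± 0.827 to 9.24 ± 2.62.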
